A study of Mus musculus with 4 samples.

Results

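Plasma cells are the antibody-secreting end stage of the B cell lineage, and a small population of them was present in single-cell RNA-Seq of mouse kidney. The cells described here were chosen by a single readout. They were the barcodes with 200 to 5000 detected genes, under 50% mitochondrial UMIs and at least 10 UMIs of Mzb1, an endoplasmic reticulum chaperone of B cells and plasma cells that assists immunoglobulin assembly (a UMI, or unique molecular identifier, marks 1 captured transcript). This rule took 215 of 34789 kept cells. Because the cells were selected on Mzb1, and every other gene was counted in the same cells, levels against other kidney cells are given as a description with no test.

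Whole kidneys came from male C3H/HeJ mice, a strain known for an inactive Tlr4 allele that all groups share. Wild-type mice (WT) and Sweet Pee mice (SP), which carry a missense mutation in Slc5a2 and lack functional SGLT2, the glucose transporter of the proximal tubule, were placed at 10 weeks of age on normal diet (ND) or on a high-fat diet with 60% of calories from fat (HFD). After 8 weeks of diet the kidneys were taken at 18 weeks of age. Each of the 4 conditions (WT-ND and WT-HFD, SP-ND and SP-HFD) was 1 library, and the sources used here do not say how many mice entered it. Depth was 93142028 UMIs in WT-ND and 115117649 in WT-HFD, with 111617794 in SP-ND and 90728590 in SP-HFD. With 1 library per condition no difference could be tested against replicates. Intervals below are exact 95% intervals that cover counting error only, and a difference between libraries cannot be told apart from a difference between mice or between dissociations.

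As background, a B cell that becomes a plasma cell shuts down its B cell programme and turns over most of its transcription to immunoglobulin. The factors PRDM1 (Blimp-1), IRF4 and XBP1 drive this change, and XBP1 expands the endoplasmic reticulum, where heavy and light chains are folded, glycosylated and joined. IgA plasma cells are typical of mucosal surfaces. There the J chain links IgA monomers, the chemokine CCL28 attracts cells that carry its receptor CCR10, and the polymeric immunoglobulin receptor (Pigr) carries IgA across epithelium.

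The number of plasma cells differed widely among the libraries. There were 25 in WT-ND and 73 in WT-HFD, with 1 in SP-ND and 116 in SP-HFD. As a share of kept cells this was 0.230% in WT-ND (interval 0.149 to 0.339, of 10869 cells) and 0.753% in WT-HFD (0.590 to 0.945, of 9700), with 0.0148% in SP-ND (0.000375 to 0.0825, of 6754 cells) and 1.55% in SP-HFD (1.29 to 1.86, of 7466). None of the 4 intervals overlapped another, and within each genotype the HFD library held the larger share. Without members holding 5 or more UMIs of other marker lists, which left 12, 4, 0 and 10 cells in the same order, WT-ND (0.110%) stood above WT-HFD (0.0412%). The order of the HFD libraries also depended on the rule, since cells chosen by at least 10% immunoglobulin and Jchain UMIs, without use of Mzb1, made up 2.27% of WT-HFD and 1.75% of SP-HFD. Every plasma cell value of SP-ND is thus that of 1 cell, and no count of genes is given for the comparisons with SP-ND. Libraries shared between 54 and 77 barcodes per pair, and no member's barcode was a member in a second library.

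The other lymphocytes did not show the same spread. B cells that were not plasma cells, gated by at least 3 UMIs of a B cell marker list that includes Cd79a, Cd79b and Ms4a1 and at most 2 UMIs of Jchain, numbered 44 in WT-ND and 41 in WT-HFD, with 38 in SP-ND and 55 in SP-HFD. For every 100 such B cells there were 56.8 plasma cells in WT-ND and 178 in WT-HFD, with 2.63 in SP-ND and 211 in SP-HFD. For every 100 T or NK cells there were 16.4, 42.4, 0.901 and 50 plasma cells, in the same order of libraries. The order SP-ND, WT-ND, WT-HFD, SP-HFD therefore held against B cells and against T or NK cells as denominators, as it did against macrophages (0.270, 6.35, 12.1 and 23.1 per 100).

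**Figure D1:**
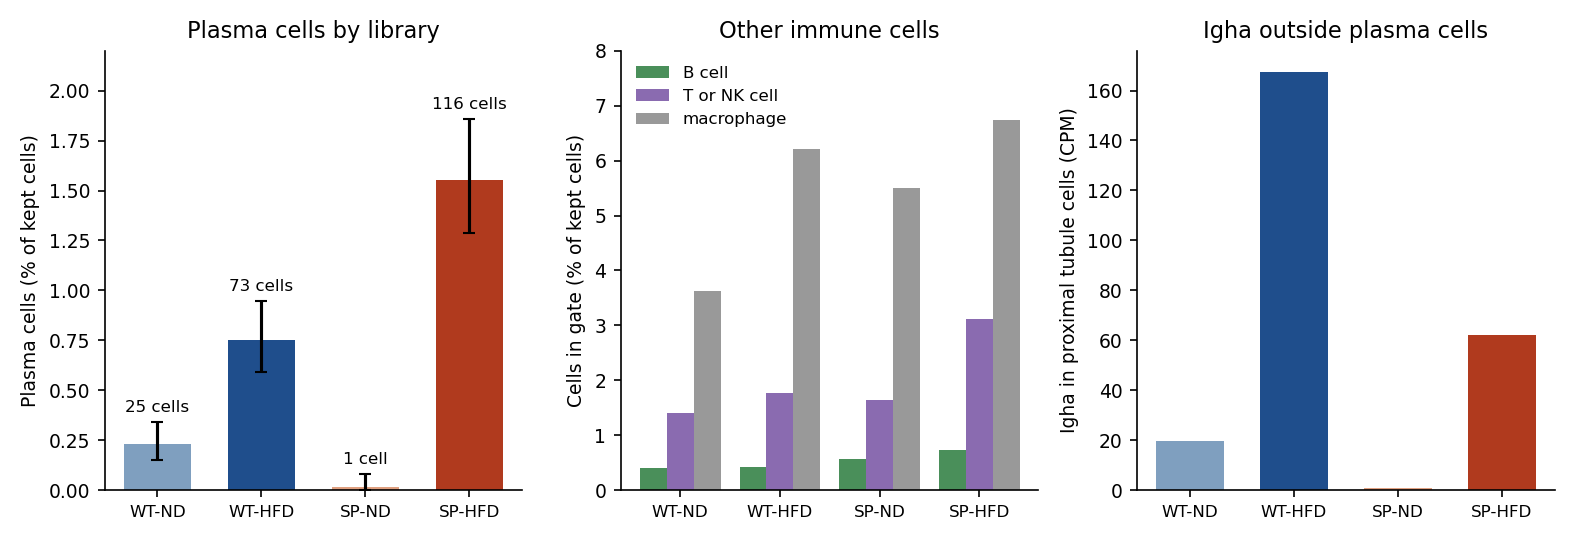
Left, plasma cells as a percent of kept cells in each library, with exact 95% counting intervals as error bars and the number of cells above each bar. Middle, other immune gates as a percent of kept cells, and right, Igha in proximal tubule cells in counts per 1000000 UMIs (CPM), where SP-ND is at 0.857 CPM and WT-HFD at 168 CPM.

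Immunoglobulin RNA outside the plasma cells was also lowest in SP-ND, while its mean level was highest in WT-HFD. Levels here are counts per 1000000 UMIs (CPM). Proximal tubule cells, which do not make antibody and were taken as cells with at least 5% of UMIs from a proximal tubule list and no B, T or NK marker UMI, held Igha at 19.7 CPM in WT-ND and 168 CPM in WT-HFD, with 0.857 CPM in SP-ND and 62.3 CPM in SP-HFD, against 109084 to 114722 CPM in plasma cells. A UMI of Igha was seen in 10.9% of the tubule cells of WT-ND (median depth 3964 UMIs), 30.1% of those of WT-HFD (5506), 0.923% of those of SP-ND (15546) and 53.2% of those of SP-HFD (13672.5). After each cell was thinned to 1000 UMIs, which left out 1172, 76, 19 and 23 shallower cells in that order, the shares were 1.80% in WT-ND and 9.28% in WT-HFD, with 0 of 306 cells in SP-ND, which allows a share of up to 0.980%, and 8.62% in SP-HFD. The highest Igha count in a tubule cell was 18 UMIs in WT-ND and 279 in WT-HFD, with 2 in SP-ND and 6 in SP-HFD, and the highest Igkc count was 1030 in WT-HFD against 49 in WT-ND and 8 in SP-HFD. In SP-ND the 1 plasma cell alone held 97.3% of the 1908 Igha UMIs of its kept cells. In WT-HFD the ratio of Igkc to Igha was 4.14 in tubule cells and 3.36 in plasma cells, whereas in WT-ND and SP-HFD it was lower in tubule cells (1.30 and 1.41) than in plasma cells (3.196 and 3.39).

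The label was checked against the other markers named for it. A cell held 33 to 2872 UMIs of Jchain and 0 to 47 of Xbp1. Igha was at 97 or more UMIs in every cell but an IgM cell with 1, and Igkc at 263 or more in every cell but 2 that used a lambda light chain. Tubule cells of WT-HFD reached 279 Igha and 126 Jchain UMIs, so the lowest of these counts do not set a cell apart. Jchain, which encodes the joining chain of polymeric IgA and IgM, stood at 78553 CPM in WT-ND and 82393 CPM in WT-HFD, with 62087 CPM in SP-ND and 90176 CPM in SP-HFD. Xbp1 stood at 995 CPM (860 to 1146), 868 CPM (818 to 920), 432 CPM (174 to 891) and 815 CPM (772 to 859). Mzb1 itself, which set the membership, stood at 3286, 3493, 2904 and 3528 CPM. Immunoglobulin genes and Jchain together took 55.4% of all UMIs of the plasma cells in WT-ND and 57.0% in WT-HFD, with 65.9% in SP-ND and 60.2% in SP-HFD. Across all 215 cells the most abundant transcripts were Igkc (37.4% of UMIs), Igha (11.1%) and Jchain (8.61%).

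The cells varied in depth and in this antibody share. Plasma cells of WT-ND held 3662 to 12721 UMIs (median 7476), those of WT-HFD 5316 to 30032 (median 17845) and those of SP-HFD 5502 to 28759 (median 13953), while the SP-ND cell held 16187. The WT-ND cells were the shallowest, and since the rule asks for a fixed number of Mzb1 UMIs it is stricter in shallow cells. The antibody share of a cell (immunoglobulin and Jchain) ran from 10.8% to 70.7% in WT-ND (median 56.9%), from 1.96% to 76.3% in WT-HFD (median 62.9%) and from 9.26% to 79.7% in SP-HFD (median 63.2%). Most cells of each library therefore devoted over 30% of their UMIs to antibody (22 of 25, 62 of 73, 1 of 1 and 109 of 116), with a thin tail below. At the threshold, the 7 members with 10 or 11 Mzb1 UMIs had immunoglobulin at 1.80% to 54.1% of UMIs, and the 12 cells just outside it with 8 or 9 Mzb1 UMIs had 2.91% to 66.0%.

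**Figure D2:**
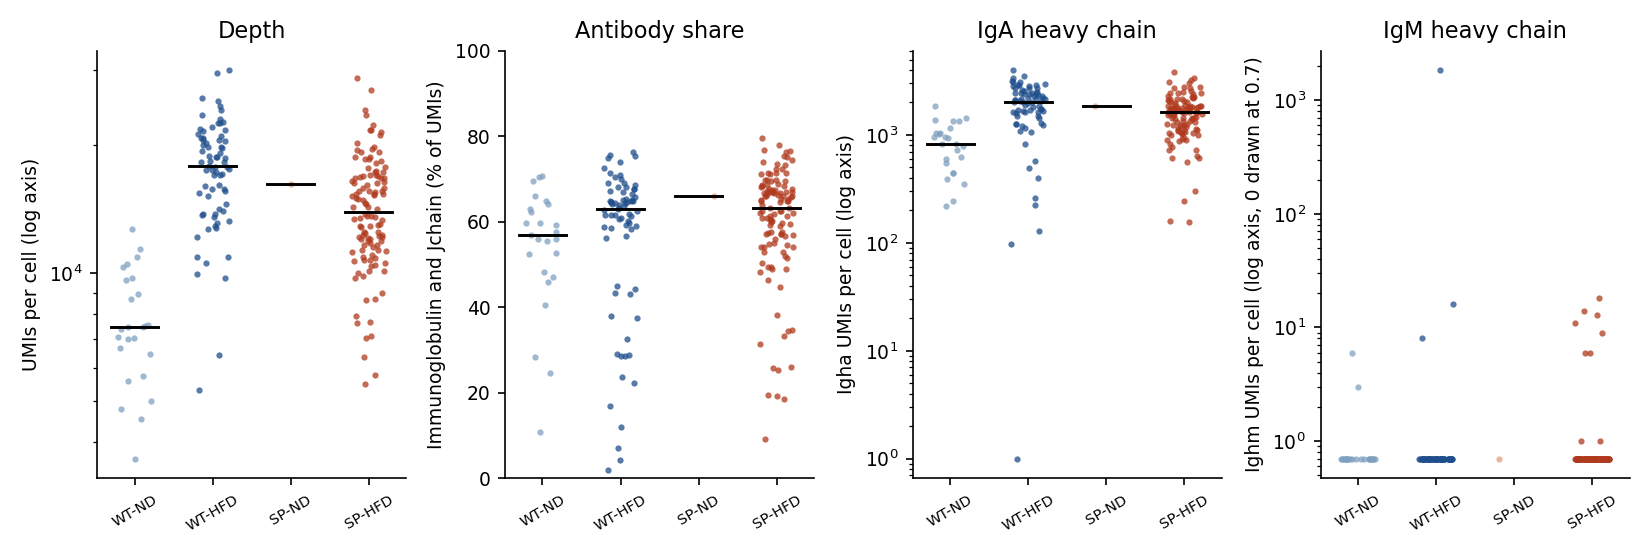
Each point is 1 plasma cell and each black line a library's median, for UMIs per cell, the percent of UMIs from immunoglobulin and Jchain, Igha UMIs and Ighm UMIs (log axes except the percent). The 25 WT-ND cells lie lowest in depth, and a single WT-HFD cell stands out with 1 Igha and 1839 Ighm UMIs.

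Some members carried RNA of other kidney cells. The 14 proximal tubule genes listed, led by Kap, summed to 3662 CPM in WT-ND and 3719 in WT-HFD, with 927 in SP-ND and 2381 in SP-HFD. Thick limb genes (5 of them), led by Umod, summed to 186, 1028, 61.8 and 456 CPM. Mixed members, defined as those with at least 1% proximal tubule UMIs or at least 5 UMIs of the thick limb, T or NK, macrophage, neutrophil or endothelial list, numbered 0 of 25 in WT-ND and 16 of 73 in WT-HFD, with 0 of 1 in SP-ND and 16 of 116 in SP-HFD. Of 1334 thick limb UMIs in WT-HFD plasma cells, 1248 lay in those 16 cells. Without mixed members the shares of kept cells were 0.230%, 0.588%, 0.0148% and 1.34%, so the order of the libraries was the same. Of the marker genes, 2 of the 8 T or NK genes and 1 of the 5 neutrophil genes were at 0 in all 215 cells, as were all 4 haemoglobin genes, and 1 SP-HFD cell held 142 neutrophil-list UMIs. The part of doublets and free RNA in these values was not tested.

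Nearly every cell used the IgA heavy chain. By the constant region with most UMIs, 25 of 25 cells were IgA in WT-ND and 72 of 73 in WT-HFD, with 1 of 1 in SP-ND and 116 of 116 in SP-HFD. As a percent, the intervals were 86.3 to 100 in WT-ND, 92.6 to 99.97 in WT-HFD and 96.9 to 100 in SP-HFD, so no difference in class between libraries was detectable with these numbers of cells. Igha (12:113254830-113260236 on the minus strand of GRCm38) stood at 110800 CPM in WT-ND and 109084 in WT-HFD, with 114722 in SP-ND and 112223 in SP-HFD. A cell of WT-ND held 219 to 1857 Igha UMIs (median 833), a cell of WT-HFD up to 3985 (median 2039) and a cell of SP-HFD 155 to 3859 (median 1617).

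Other heavy chains were rare. The single IgM cell, in WT-HFD, held 1839 UMIs of Ighm, the constant region used before class switching, with 1 UMI of Igha, 9487 of Igkc and 1208 of Jchain. That cell carried 98.7% of all Ighm UMIs of the WT-HFD plasma cells, and it was among the mixed members through 5 thick limb UMIs. No cell was led by any of the IgG or IgE genes that were counted. Ighg2a, an IgG gene of the planned list, was not among them. Of the IgG genes Ighg2b was the highest, with 289 UMIs over 39 cells, and at least 5 IgG UMIs were seen in 0 cells of WT-ND, 15 of WT-HFD, the 1 of SP-ND and 20 of SP-HFD. Ighd was at 0 in all 215 cells, against 467 CPM in the gated B cells. The class with most UMIs held at least 93.6% of a cell's heavy chain UMIs in every cell, so class calls were not close.

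Kappa light chains dominated in the same way. All cells were kappa in WT-ND, WT-HFD and SP-ND, and 114 of 116 were kappa in SP-HFD. Igkc (6:70726435-70726966) stood at 354145 CPM in WT-ND and 366278 in WT-HFD, with 468524 in SP-ND and 380531 in SP-HFD. Lambda was used by the remaining 2 SP-HFD cells, with 1964 and 11132 UMIs of Iglc1 and 59 and 1 UMIs of Igkc, and both held Igha and Iglv1. The cell with 11132 UMIs supplied 66.6% of the Iglc1 UMIs of the SP-HFD plasma cells. Iglc1 accordingly read 10008 CPM in SP-HFD against 1382 in WT-ND, 1497 in WT-HFD and 618 in SP-ND. Lambda counts also appeared in kappa cells, where they made up a median of 0.852% of light chain UMIs in WT-ND, 1.48% in WT-HFD and 1.22% in SP-HFD. The highest share in a kappa cell was 5.15%, 5.10% and 13.8% in these libraries, and at least 10 UMIs of lambda V segments were seen in 5 of 25, 36 of 73 and 52 of 114 kappa cells.

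The variable (V) segment gives each clone of B cells part of its antigen specificity. A heavy V segment was assigned to a cell where it had at least 10 UMIs and at least 50% of the cell's heavy V UMIs, and kappa V segments likewise. This assigned a heavy V segment to 128 of 215 cells (36 different segments) and a kappa V segment to 202 cells (52 different segments). The libraries count transcript ends, and V segments were thinly covered. Heavy V UMIs made up 0.144% of plasma cell UMIs and kappa V UMIs 0.257%. A cell's leading segment had a median of 13 UMIs for heavy and 29 for kappa chains. The reads were counted on a C57BL/6 reference although the mice were C3H/HeJ, and the segments are multigene families, so a name stands for the nearest counted segment and may hide a close copy. Ighv1-14, the most used heavy segment (13 cells), is annotated as a pseudogene on that reference. At a stricter 80% of V UMIs, 99 cells kept a heavy and 181 a kappa segment.

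The population was diverse, with some combinations repeated within a library. Of 126 cells with both segments there were 96 different pairs, and 21 pairs occurred in at least 2 cells, covering 51 cells. Of these 21 pairs, 19 recurred within 1 library and 2 were found in more than 1 library. Ighv7-3 with Igkv1-117 was found in 6 cells, all of WT-HFD, and Ighv3-6 with Igkv6-25 in 5 cells, all of SP-HFD. Ighv1-14 with Igkv5-43 was found in 3 SP-HFD cells and Ighv1-42 with Igkv12-44 in 3 WT-HFD cells. The junctions that would identify a clone were not counted in these tables, so cells with the same pair share segments and are not shown to be 1 clone.

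Segment use differed between the 2 large libraries in a few cases. Igkv6-15 was the kappa segment of 16 of 111 assigned cells in SP-HFD and 2 of 67 in WT-HFD, with 0 in WT-ND and SP-ND. Its SP-HFD cells did not share a single heavy segment, since no heavy segment was paired with it in more than 2 cells. Ighv7-3 was the heavy segment of 10 of 43 assigned cells in WT-HFD and 2 of 68 in SP-HFD. These counts describe the libraries and not the conditions.

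The segments of the 2 largest pairs are printed because the identity of a pair rests on telling them from their closest relatives. Each line gives the last 100 bases of the reference transcript (GENCODE M21, GRCm38, sense strand, the end nearest the junction), with capitals at bases that differ from the nearest other segment.
Ighv7-3 (chr12:114153180-114153644, minus strand): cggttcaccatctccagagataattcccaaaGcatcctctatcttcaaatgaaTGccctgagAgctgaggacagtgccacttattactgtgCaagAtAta
Igkv1-117 (chr6:68121046-68121827, plus strand): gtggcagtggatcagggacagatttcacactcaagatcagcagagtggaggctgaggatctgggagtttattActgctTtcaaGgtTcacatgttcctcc
Igkv1-110 (chr6:68270485-68271267, plus strand): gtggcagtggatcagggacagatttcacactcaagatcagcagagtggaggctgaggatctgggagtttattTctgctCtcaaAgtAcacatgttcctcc
Ighv3-6 (chr12:114288152-114288582, minus strand): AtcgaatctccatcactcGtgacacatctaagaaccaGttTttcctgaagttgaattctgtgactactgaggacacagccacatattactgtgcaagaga
Igkv6-25 (chr6:70215400-70215957, plus strand): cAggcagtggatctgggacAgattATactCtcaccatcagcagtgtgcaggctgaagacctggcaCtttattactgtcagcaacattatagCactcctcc
Igkv1-117 and Igkv1-110 are 96.8% identical over their transcripts, with 10 mismatches, 4 of them in the stretch shown. A split of reads between these 2 is therefore possible, and each was assigned to 13 cells. Ighv7-3 and its nearest relative Ighv7-4 are 93.1% identical, Ighv3-6 and Ighv3-1 are 91.7% identical, and Igkv6-25 and Igkv6-17 are 94.7% identical.

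**Figure D3:**
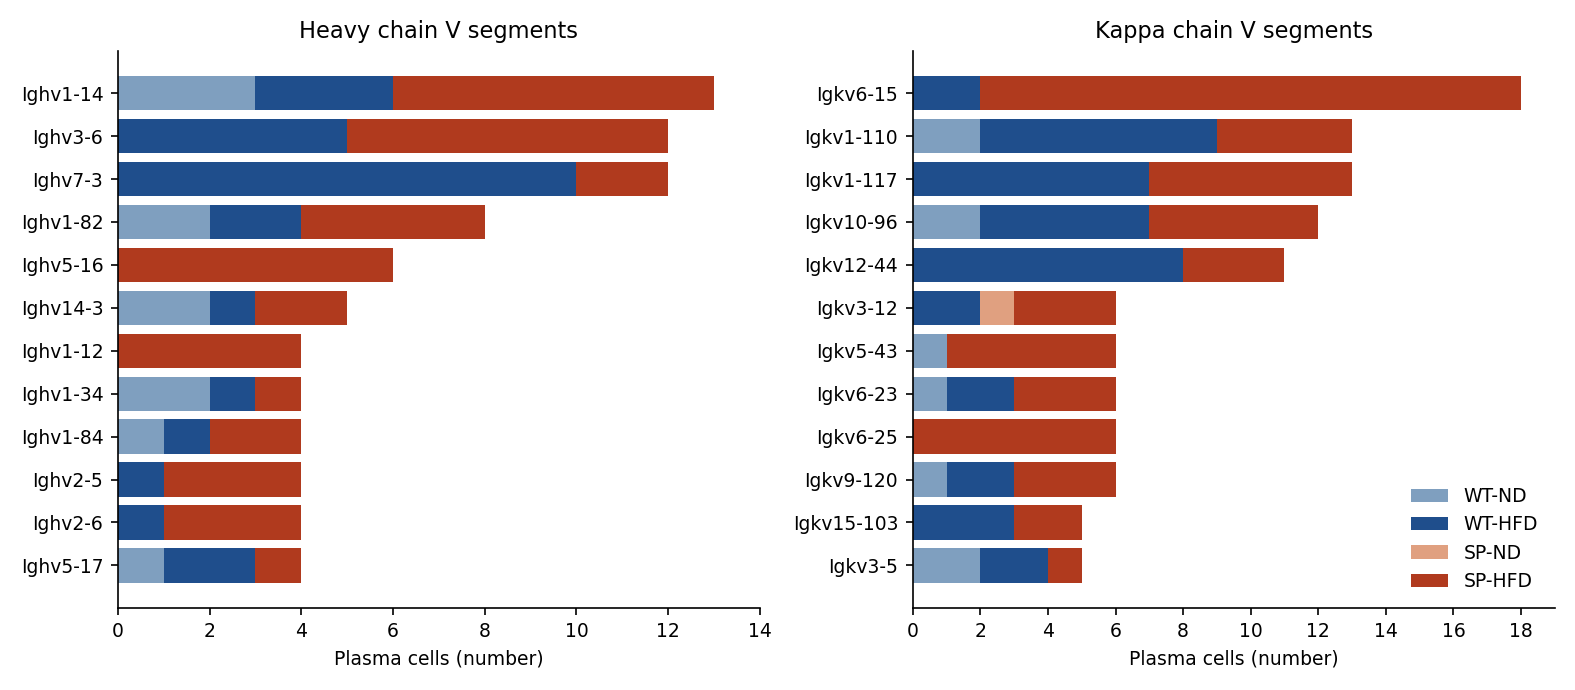
Number of plasma cells assigned to each of the 12 most used heavy and kappa V segments, coloured by library. Igkv6-15 comes mostly from SP-HFD (16 of 18 cells) and Ighv7-3 mostly from WT-HFD (10 of 12).

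Against the other kept cells, plasma cells were rich in the machinery of the secretory pathway. Over 12161 genes with at least 500 UMIs in plasma cells and other cells together, 2.59% were at least 2-fold higher in plasma cells and 75.7% at least 2-fold lower, on a total in which immunoglobulin and Jchain made up 58.6% of plasma cell UMIs. Of 82 genes compared from 5 endoplasmic reticulum lists, 38 were at least 2-fold higher and 9 at least 2-fold lower. These lists made up 5.92% of the UMIs outside immunoglobulin, Jchain and mitochondrial genes in plasma cells and 1.19% in other kept cells. By library the share was 6.22% in WT-ND and 5.64% in WT-HFD, 10.2% in the SP-ND cell and 6.096% in SP-HFD.

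Among genes that bring the growing chain into the endoplasmic reticulum, 11 of 19 were at least 2-fold higher. The signal peptidase subunit Sec11c stood at 1449 CPM in plasma cells and 66.0 CPM in other cells, and Ssr4, of the translocon-associated complex, at 1724 and 164 CPM. Sec11c by library was 1480 CPM in WT-ND and 1517 in WT-HFD, with 1483 in SP-ND and 1391 in SP-HFD. Ssr4 was 1981, 1798, 2100 and 1633 CPM in the same order. Sec62, which acts in post-translational entry, went the other way, at 152 CPM in plasma cells and 528 CPM in other cells.

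Among chaperones and folding enzymes, 14 of 25 were at least 2-fold higher. The disulfide isomerase Txndc5 stood at 841 CPM against 30.8 CPM in other cells, Prdx4, a peroxidase that oxidises client disulfides, at 359 against 28.99 CPM, and Sdf2l1, a partner of BiP, at 304 against 20.0 CPM. The chaperone Hsp90b1 (GRP94) was the highest of the list at 1685 CPM against 414 CPM. Hspa5 (BiP) stood lower, at 681 against 380 CPM. Calnexin (Canx) at 72.4 against 268 CPM and P4hb at 69.9 against 159 CPM were below the other cells.

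Genes that clear misfolded chains were as skewed, with 9 of 12 at least 2-fold higher and none at least 2-fold lower. Derl3, a derlin of secretory tissues, stood at 256 CPM against 1.03 CPM, and 0 UMIs of it were found in the gated B cells. Edem1 and Edem2, which mark glycoproteins for removal, stood at 210 against 24.9 CPM and 203 against 22.9 CPM, and Herpud1 at 633 against 153 CPM. In glycosylation 3 of 11 genes were at least 2-fold higher and 1 lower, and in transport to the Golgi 1 of 15 was higher and 5 lower. Of the stress sensors and their targets 1 of 9 was at least 2-fold higher and 2 lower. The higher gene was Asns at 16.7 against 2.85 CPM, and Ddit3 (CHOP) stood at 55.4 against 45.8 CPM.

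**Figure D4:**
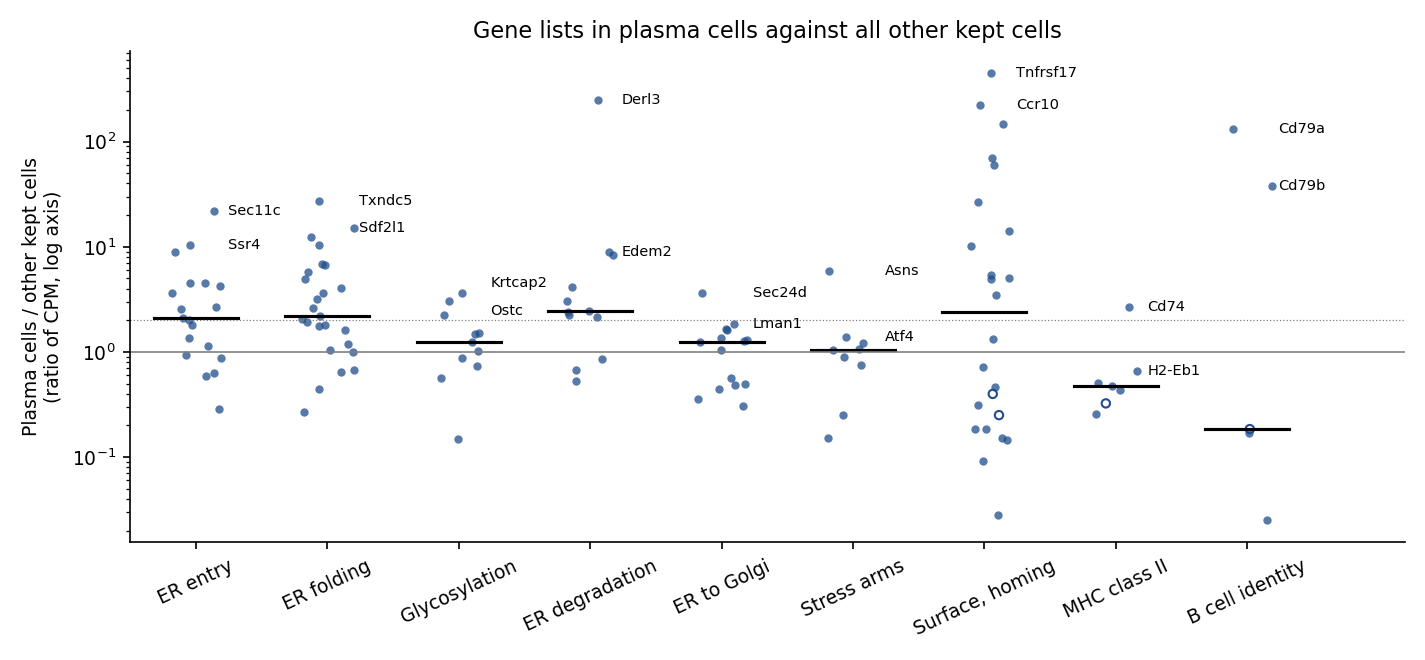
Ratio of CPM in all 215 plasma cells to CPM in all other kept cells (log axis) for each compared gene of 9 lists, with the list median as a black line, a ratio of 2 dotted, and genes at 0 in plasma cells drawn open at 3 UMIs. Derl3 stands far above the other degradation genes, and Cd79a and Cd79b stand above the other 3 B cell genes compared.

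The promoters of these genes were searched for the ER stress response element, a motif bound by ATF6 and XBP1 with NF-Y. It was spelled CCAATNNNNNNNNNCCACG and searched on both strands from 250 bases before to 50 after each start (RefSeq, GRCm38.p6). Of 32851 promoters 0.119% held it. It was found in 7 of 20 folding genes with a promoter in the table (Calr, Canx, Creld2, Dnajc3, Hsp90b1, Hspa5 and Pdia6), 2 of 11 degradation genes (Derl3 and Syvn1), and 0 of the entry, glycosylation, Golgi transport and plasma cell factor genes. Windows around a match are printed for 5 of these genes (Hsp90b1 had a second match), with the fixed bases in capitals (where the motif lay on the opposite strand they read CGTGG and ATTGG).
Derl3 (chr10:75893232-75893270, plus strand): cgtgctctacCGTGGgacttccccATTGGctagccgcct
Creld2 (chr15:88819510-88819548, plus strand): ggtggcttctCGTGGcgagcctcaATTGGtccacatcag
Hsp90b1 (chr10:86705628-86705666, minus strand): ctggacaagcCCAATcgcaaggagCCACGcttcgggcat
Syvn1 (chr19:6046522-6046560, plus strand): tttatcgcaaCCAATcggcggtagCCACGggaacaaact
Hspa5 (chr2:34772015-34772053, plus strand): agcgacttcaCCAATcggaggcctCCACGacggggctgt
The 9 genes with the motif ranged from 249-fold higher in plasma cells (Derl3) through 10.4-fold (Creld2), 4.07-fold (Hsp90b1), 3.05-fold (Syvn1) and 1.79-fold (Hspa5) down to Canx, which was below the other cells. Txndc5, Prdx4 and Sec11c, among the most skewed genes, had no match to these letters in the window. A match is a description of the sequence and says nothing of binding in these cells.

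Of 24 surface and homing genes compared, 12 were at least 2-fold higher in plasma cells than in other kept cells and 10 at least 2-fold lower. Tnfrsf17 (BCMA), the receptor through which APRIL keeps plasma cells alive, stood at 304 CPM in WT-ND (232 to 392) and 189 in WT-HFD (166 to 214), while the SP-ND cell had 432 (174 to 891) and SP-HFD 174 (155 to 196), against 0.423 CPM in other cells. Ccr10, the receptor of CCL28, stood at 191, 210, 61.8 and 217 CPM against 0.955 CPM in other cells, and was seen in 178 of 215 cells. Ly6c2 (611 CPM), Slamf7 (94.1 CPM), Cd28 (75.8 CPM) and Sdc1 (syndecan-1, 114 CPM) were also above other cells (4.12, 1.33, 2.83 and 11.2 CPM). Slpi, a secreted protease inhibitor, reached 1846 CPM in WT-ND (where 1 cell held 56.7% of its 358 UMIs), 2036 CPM in the WT-HFD cells and 1427 CPM in SP-HFD but 61.8 CPM, a single UMI, in the SP-ND cell. The lymph node homing receptor Ccr7 and the receptor Ccr6 were at 0 in all 215 cells, and Ccr9, the receptor for small intestine homing, stood at 22.3 CPM in 36 cells.

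Several plasma cell factors were present while most B cell identity genes were at or near 0. Of the 10 factors listed, 6 had enough UMIs to be compared with other cells, of which 4 were at least 2-fold higher and 1 lower (Zbtb20, at 97.9 against 467 CPM). The 4 higher genes were Xbp1 at 846 CPM (other cells 80.2), Prdm1 at 59.2 (3.601), Ell2 at 90.001 (20.2) and Sub1 at 477 (195). Below the minimum of 500 UMIs for that comparison were Pou2af1 at 109 CPM (0.634), Irf4 at 62.9 (1.09), Ikzf3 at 17.3 (1.22) and Bhlha15 (MIST1), a factor of secretory cells, at 25.5 (0.145). On all UMIs the gated B cells had higher levels than plasma cells of Irf4 (93.4 CPM), Ikzf3 (84.7), Zbtb20 (272) and Sub1 (621). Immunoglobulin and Jchain made up 58.6% of the plasma cell total, and B cell levels without them were not computed. The order of plasma cells and B cells in this paragraph therefore holds for all UMIs only. Of 14 B cell identity genes, Pax5, Ciita and Spib were at 0 in all plasma cells, where the gated B cells had 149, 46.7 and 79.6 CPM. Ms4a1 (CD20) stood at 11.96 against 486 CPM in B cells. The receptor subunits were still present, with Cd79a at 711 against 1451 CPM and Cd79b at 137 against 713 CPM. Class II antigen presentation genes were lower on all UMIs than in B cells, with Cd74 at 1908 against 6150 CPM, H2-Eb1 at 148 against 1161 CPM and H2-Oa and H2-Ob at 0. Of 12 cell cycle genes the highest was Hmgb2 at 76.8 CPM, and Mki67 had 37 UMIs in 23 cells.

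With all members kept, levels of Igha, Igkc and Jchain on all UMIs were close between the libraries with over 1 plasma cell. For Igkc and Jchain this depended on which cells were members. Immunoglobulin and Jchain made up 55.4% to 60.2% of that total in these libraries, so the scale limits how far such levels can differ. For the diet comparison in wild-type mice, 1503 genes with at least 50 UMIs over both libraries were compared, of which 9.38% were at least 2-fold higher in WT-HFD and 1.33% at least 2-fold lower. With immunoglobulin, Jchain and mitochondrial UMIs left out of the total, the split was 9.92% against 1.01%. The excess on the higher side was not seen without the mixed members, since 141 genes were higher and 20 lower with them and 42 were higher and 42 lower without them. The mixed rule took cells from WT-HFD only (16 of 73, against 0 of 25 in WT-ND). Its fixed 5 UMIs of most lists are harder to reach in the shallower WT-ND cells (median 7476 UMIs against 17845). Igha had a log2 ratio of -0.02 (-0.04 to -0.00), Igkc of 0.05 (0.04 to 0.06), Jchain of 0.07 (0.04 to 0.09) and Xbp1 of -0.20 (-0.42 to 0.03). Without the 16 mixed cells the Igha ratio on all UMIs was 0.13, so its sign turned. With immunoglobulin, Jchain and mitochondrial UMIs left out of the total, and all members kept, Igha was at 0.03, Igkc at 0.10 and Jchain at 0.12.

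The medians of the secretory lists lay below 0 in that comparison, while single genes ran from -0.97 to 1.43. Of 76 endoplasmic reticulum genes 1 was at least 2-fold higher (Derl2, on 3 UMIs in WT-ND) and 0 at least 2-fold lower, and 57 lay below 0, with a median log2 ratio of -0.14 against 0.05 for all genes compared. The folding list had the lowest median, -0.35. Manf, a chaperone-like secreted protein, stood at 820 CPM in WT-ND (698 to 958) and 587 in WT-HFD (546 to 630), a log2 ratio of -0.48 (-0.73 to -0.23). Txndc5 had a ratio of -0.40 (-0.61 to -0.18) and Sec61g, a subunit of the translocation channel, of -0.83 (-1.08 to -0.58).

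Many genes at the upper end of that comparison came from single or mixed cells. The 5 highest ratios were those of Ighm, Wfdc15b, Tagln, Gadd45b and Acta2. A single cell gave 98.7% of the Ighm UMIs, 97.9% of those of Tagln and 91.9% of those of Acta2, the latter pair being smooth muscle genes, and 45.7% of those of Wfdc15b. Gadd45b, an early stress gene, was spread over 37 of 73 cells, at 58.5 CPM in WT-HFD on 76 UMIs against 1 UMI in WT-ND. All 4 thick limb genes compared were at least 2-fold higher in WT-HFD. At the lower end Crip1 stood at 1145 CPM in WT-ND and 253 CPM in WT-HFD. Of its UMIs in the WT-ND plasma cells, however, 86.5% lay in 1 cell.

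Between genotypes on HFD, 2579 genes were compared, of which 0.388% were at least 2-fold higher in SP-HFD and 3.06% at least 2-fold lower, with a median log2 ratio of -0.23. With immunoglobulin, Jchain and mitochondrial UMIs left out of the total the median was -0.02 and the split 0.822% against 1.49%. Without mixed members, on all UMIs, 29 genes were higher and 22 lower, where 10 were higher and 79 lower with them. Igha had a log2 ratio of 0.04 (0.03 to 0.05), Igkc of 0.06 (0.05 to 0.06), Jchain of 0.13 (0.12 to 0.14) and Xbp1 of -0.09 (-0.21 to 0.02). On the second scale Igha was at 0.25, Igkc at 0.27 and Jchain at 0.34, and the sign of Xbp1 turned, to 0.12 (0.0064 to 0.24). Without mixed members, on all UMIs, Igha was at -0.06 and Igkc at -0.05, so both signs turned. Of 78 endoplasmic reticulum genes 0 were at least 2-fold higher and 1 (Srprb, a subunit of the signal recognition particle receptor, -1.01) at least 2-fold lower. Their median was -0.15 on all UMIs and 0.06 on the second scale, so the sign of this list turned with the total used.

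Among the endoplasmic reticulum genes some had a ratio above 0 on both scales. The chaperone Hspa5 had 621 CPM in WT-HFD against 719 CPM in SP-HFD, with a ratio of 0.21 on the log2 scale (0.08 to 0.34). Herpud1 had 549 against 716 CPM (ratio 0.39, 0.25 to 0.52), and Derl3 213 against 289 CPM (ratio 0.44, 0.23 to 0.66). Each of these was under 2-fold, and without members holding 5 or more UMIs of other marker lists Herpud1 was at -0.36, on 4 WT-HFD and 10 SP-HFD cells. The SP-ND cell had 1297 CPM of Hspa5, 865 CPM of Herpud1 and 618 CPM of Derl3.

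The early response genes, which dissociation of a tissue is known to induce, were lower in SP-HFD on both scales for most of the list. Their log2 ratio of SP-HFD to WT-HFD was below 0 for 8 of 8 genes on all UMIs, and for 7 of 8 on the second scale, where Hspa1b was at 0.06. On all UMIs most genes lay below 0, among them 67 of the 78 endoplasmic reticulum genes. The median of the early response list was -0.67 against -0.23 for all genes compared, and -0.46 against -0.02 on the second scale. Fos stood at 1057 CPM in WT-ND and 965 in WT-HFD, with 61.8 in SP-ND and 585 in SP-HFD, and Jun at 1449, 1577, 247 and 954 CPM. The log2 ratio of SP-HFD to WT-HFD was -0.72 (-0.84 to -0.60) for Fos and -0.72 (-0.82 to -0.63) for Jun, and without mixed members -0.63 and -0.71. Egr1 (-1.74) and Ier2 (-1.02) were at least 2-fold lower on all UMIs, and on the second scale Egr1 (-1.52) but not Ier2 (-0.80). Fos had at least 1 UMI in 61 of 73 WT-HFD cells and 87 of 116 SP-HFD cells. The part of tissue handling in these ratios was not tested.

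**Figure D5:**
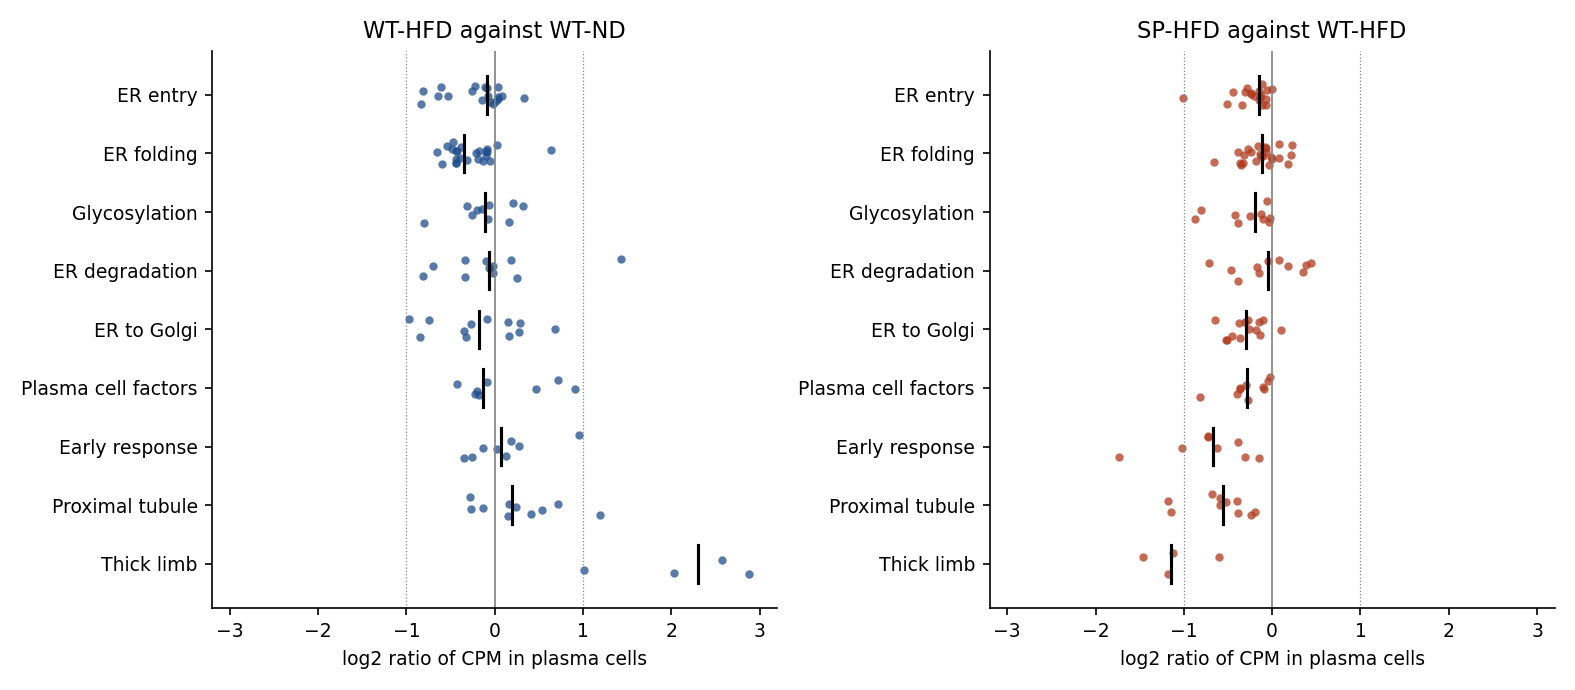
log2 ratio of CPM between libraries for each compared gene of 9 lists, with the list median as a black line and 2-fold dotted. The endoplasmic reticulum lists lie close to 0 in both panels, while the thick limb genes lie above 0 in WT-HFD against WT-ND and below 0 in SP-HFD against WT-HFD.

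The extremes of the genotype comparison again included single cells. S100a9 and Lyz2, myeloid genes, had 98.9% and 71.2% of their UMIs in SP-HFD plasma cells in 1 cell. S100a9 was at 0 in the WT-HFD plasma cells. Ly6d, a lymphoid surface gene, was spread over 41 of 116 SP-HFD cells and 21 of 73 WT-HFD cells, at 107 against 40.1 CPM (ratio 1.42 on the log2 scale, 0.97 to 1.89). At the lower end, Pvalb, Calb1 and Slc12a3 mark the distal convoluted tubule. In the WT-HFD plasma cells 52.7%, 80.6% and 49.2% of their UMIs came from 1 cell.

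The signals that attract and serve IgA plasma cells were read in the other kept cells. Ccl28, the ligand of CCR10, stood at 22.3 CPM in WT-ND and 118 in WT-HFD, with 2.85 in SP-ND and 62.6 in SP-HFD. It was lowest in the library with 1 plasma cell and higher on HFD within each genotype. Between the HFD libraries the order was the reverse of that of plasma cells by the Mzb1 rule (0.753% of kept cells in WT-HFD and 1.55% in SP-HFD). Pigr stood at 76.4, 63.7, 76.6 and 71.5 CPM, a far narrower spread. The survival factors Tnfsf13 (APRIL) at 5.24 to 8.18 CPM and Cxcl12 at 15.3 to 22.2 CPM were also within a narrow range. From the same list, Tgfb1 stood at 15.4 to 23.0 CPM and Tnfsf13b at 0.689 to 1.15 CPM. Il6 had a wider spread on few counts, from 0.0825 CPM in WT-ND (5 UMIs) to 0.488 CPM in SP-HFD (23 UMIs). With 4 libraries no relation between Ccl28 and plasma cells was computed.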

How the data were processed

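The deposited files hold counts of UMIs per gene and barcode, 1 matrix of 32285 gene identifiers for each of 4 libraries. The authors made them with Cell Ranger on mm10. The file header names version 6.1.2 and the submitters' processing notes 2.1.1. The libraries labelled WT and MT name no diet and were taken as ND. The study's methods name a further Cell Ranger version, removal of doublets with scDblFinder and by marker genes, and its supplement shows a SoupX correction of free RNA. The deposited matrices still hold barcodes past the stated filters on genes and mitochondrial UMIs, and neither step was repeated here. Every deposited barcode held at least 500 UMIs. Cells were kept at 200 to 5000 genes and under 50% mitochondrial UMIs, and members had at least 10 Mzb1 UMIs. The members and the 25 gene lists were chosen with earlier results of these data known, and the gates for other cells, the V segment rule and the definition of mixed members after the data were seen.

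The libraries count transcript ends, so levels do not scale with transcript length. Levels are summed UMIs per 1000000 UMIs (CPM) with exact Poisson intervals, shares have Clopper-Pearson intervals, and ratios between libraries have exact conditional binomial intervals, all at 95%. Genes at 0 in 1 library were set to 3 UMIs in counts of genes past 2-fold. The ratio was tested on simulated data, and the outcome of that test is not reported here. V segments were left out of comparisons between libraries. Named genes were the 5 markers, up to 4 genes with the highest level of each list, the 5 highest and 5 lowest ratios of a comparison, and the leading genes against other cells, and other genes named in the text were chosen after their values were seen. Some genes that the rule names are not reported here. The planned comparison of IgA with IgM plasma cells was not run, because only 1 IgM cell was found. Python 3.11.15, scipy 1.17.1 and Biopython 1.88 were used. Sequences were taken from GENCODE M21 and the RefSeq promoter table.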

Additional observations from a re-analysis of the deposited data

Results flagged for a closer look

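There were 6 barcodes with at least 10 Mzb1 UMIs outside the filters, 3 in WT-HFD and 3 in SP-HFD, none of them used above. Of these, 3 had over 5000 genes and 3 had at least 50% mitochondrial UMIs, and they held 136 to 2759 Igha UMIs each.

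Kept cells with at least 10% immunoglobulin and Jchain UMIs but fewer than 10 Mzb1 UMIs were also outside the comparisons. They numbered 13 in WT-ND and 150 in WT-HFD, with 0 in SP-ND and 16 in SP-HFD. Those 150 cells of WT-HFD had a median of 2440 UMIs, a median immunoglobulin and Jchain share of 20.7% and a median of 1 Mzb1 UMI, and 43 of them had 0. Their proximal tubule list summed to 25599 CPM, against 3719 CPM in the plasma cells of that library, and 81 of them held at least 5 thick limb UMIs. Their Igkc to Igha ratio was 3.02, against 3.36 in the plasma cells. The 13 of WT-ND had a median share of 47.1% and a proximal tubule sum of 6418 CPM. What share of these cells was plasma cells of low depth, doublets or other cells with free RNA was not tested.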

How the results depend on the processing

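No paired analysis was possible because each condition was 1 library. The order of the 4 shares (SP-ND, WT-ND, WT-HFD, SP-HFD) was the same under 6 of 8 alternatives. With members defined by at least 10% immunoglobulin and Jchain UMIs, an alternative chosen after seeing the data, WT-ND was at 0.350% and WT-HFD at 2.27%, above SP-HFD at 1.75%. Without members with 5 or more UMIs of other marker lists the shares were 0.110% in WT-ND and 0.0412% in WT-HFD, with 0% in SP-ND and 0.134% in SP-HFD, IgA was 75% in WT-HFD and kappa 90% in SP-HFD. That setting counts B cell genes such as Cd79a, which plasma cells hold. Under other settings WT-HFD was at 1.11% (at least 5 Mzb1 UMIs, with IgA 96.8% in SP-HFD), WT-ND at 0.138% (at least 20), the libraries with over 1 plasma cell at 0.350%, 1.12% and 2.105% (under 30% mitochondrial UMIs), WT-ND and SP-HFD at 0.343% and 1.99% (at least 2000 UMIs), and WT-HFD at 0.588% with IgA 100% (without mixed members, also chosen after seeing the data).

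Genes at least 2-fold higher and lower in WT-HFD than WT-ND, 141 and 20 as reported, were 396 and 33 at 5 Mzb1 UMIs, 46 and 56 without members holding other marker lists, and 42 and 42 without mixed members. The higher count was 297 with no upper limit on genes, and the lower count was 50 at 20 Mzb1 UMIs and 32 with every cell weighted equally. For SP-HFD against WT-HFD, 10 and 79 as reported, they were 21 and 38 without immunoglobulin, Jchain and mitochondrial UMIs, 6 and 441 at 5 Mzb1 UMIs, 17 and 41 at 20, 21 and 39 without members holding other marker lists, and 29 and 22 without mixed members, with 226 lower under no upper limit on genes. The cause was not tested.

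Of 869 log2 ratios of 46 named genes under 10 alternatives, 112 changed sign, 90 of them from a value whose counting interval held 0. The other 22 were the following. For SP-HFD against WT-HFD, Ssr4, Sec11c and Hspa1b were at 0.074, 0.089 and 0.060 without immunoglobulin, Jchain and mitochondrial UMIs, Ssr4 and Sec11c at 0.024 and 0.055 at 5 Mzb1 UMIs, and Igha, Igkc and Cd74 at -0.057, -0.052 and -0.074 without mixed members. Without members holding other marker lists, Sub1, Cd74, Sec11c, Sec61b and Herpud1 were at 0.96, -0.26, 0.94, 0.71 and -0.36. For WT-HFD against WT-ND, Igha was at 0.071 at 20 Mzb1 UMIs, 0.012 under 30% mitochondrial UMIs and 0.13 without mixed members. Jchain and Igkc were at -0.11 and -0.10 at 5 Mzb1 UMIs, -0.00011 and -0.025 with no upper limit on genes, and -0.98 and -0.41 without members holding other marker lists.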
